A study of Mus musculus with 4 samples.

Results

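Long intergenic noncoding RNA (lincRNA) probes are the 60-base probes of the Agilent SurePrint G3 Mouse GE array that are named for a stretch of the genome rather than for a gene. They were taken as all non-control probes whose name was a chromosome with coordinates, and no probe had a name beginning with lincRNA. The array held 16194 such probes among 55681, placed in 3543 regions, or 4610 when the 2 strands of a region were counted apart. The ending F or R of a region name gives the forward or the reverse strand on the mouse genome build mm9. A probe was used when some genotype had, on each of its 2 arrays, a signal well above background in at least 1 colour. This left 4651 lincRNA probes (28.7%) in 2010 regions, against 27042 of all probes (48.6%). Of the 4651 probes, 752 passed only through the wild-type arrays and 448 only through the Trp53-/- arrays.

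The cells were neural stem/progenitor cells (NSPCs) of mouse embryos at embryonic day 13.5, labelled as strain Slc:ICR in both genotypes and grown in neurosphere medium with EGF and FGF-basic. The groups were wild-type NSPCs and Trp53-/- NSPCs, which lack the tumour suppressor p53 and came from the breeding of Trp53-heterozygous mice. Each of the 4 arrays, 2 per genotype, carried RNA of cells treated with 20 μM PJ34, an inhibitor of poly(ADP-ribose) polymerases (PARPs), labelled with Cy5, and RNA of untreated control cells labelled with Cy3. Every array had the same dye orientation, and an effect of PJ34 within a genotype therefore cannot be told apart from a dye bias of the probe. Neither the labels nor the methods say how many embryos a culture held.

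LincRNAs are transcripts without a long open reading frame that are made from stretches between protein-coding genes. Some stay in the nucleus, such as Malat1, which lies in nuclear speckles, and Neat1, the scaffold of paraspeckles, and others act on neighbouring genes. p53 is a transcription factor that is stabilized after DNA damage, and it activates protein-coding genes such as Cdkn1a as well as noncoding RNAs, among them lincRNA-p21, Pvt1, Neat1 and the precursor of the miRNA miR-34a. PARPs attach chains of ADP-ribose to proteins, many of them at damaged DNA.

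The probe sequences below belong to the regions on which the results turn. They are written 5′ to 3′ as the deposited array files give them, and capitals mark AATAAA, the letters of the common polyadenylation signal, which 3.9% of the lincRNA probes hold on their own strand. The first set lies within the position that the array gives to Malat1, under its other name NEAT2, on the reverse strand (chr19:5795689-5802671, mm9), and is shown because its response differed most between the genotypes.
A_30_P01028215, chr19:5802267-5802326, reverse strand: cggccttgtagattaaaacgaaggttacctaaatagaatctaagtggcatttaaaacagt
A_30_P01021970, chr19:5802191-5802250, reverse strand: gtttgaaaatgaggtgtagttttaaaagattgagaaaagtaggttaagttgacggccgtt
A_30_P01020935, chr19:5798256-5798315, reverse strand: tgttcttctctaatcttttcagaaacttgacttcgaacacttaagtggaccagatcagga
The next 3 probes make up a region between the gene probes of H6pd and Gpr157 on chromosome 4. They responded in wild-type cells and were at background in Trp53-/- cells.
A_30_P01025511, chr4:149445831-149445890, forward strand: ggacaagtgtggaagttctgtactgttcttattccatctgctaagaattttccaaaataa
A_30_P01024344, chr4:149445771-149445830, forward strand: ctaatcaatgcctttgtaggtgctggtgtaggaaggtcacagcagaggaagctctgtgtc
A_30_P01032002, chr4:149445680-149445739, forward strand: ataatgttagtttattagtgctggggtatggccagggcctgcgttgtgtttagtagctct
The following pair rose in wild-type cells and holds the probe with the largest mean ratio there. The probes lie end to end in the histone cluster of chromosome 3.
A_30_P01027709, chr3:96082736-96082795, forward strand: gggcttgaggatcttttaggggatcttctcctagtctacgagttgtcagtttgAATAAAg
A_30_P01022407, chr3:96082796-96082855, forward strand: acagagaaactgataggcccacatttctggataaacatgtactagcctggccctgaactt
The probes that fell in Trp53-/- cells lie in the cluster of interferon-inducible genes on chromosome 1.
A_30_P01024163, chr1:175706660-175706719, reverse strand: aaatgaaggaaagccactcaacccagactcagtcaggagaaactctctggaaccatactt
A_30_P01027543, chr1:175706588-175706647, reverse strand: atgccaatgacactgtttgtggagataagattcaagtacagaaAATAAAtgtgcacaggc
The last pair had the largest differences between untreated genotypes. The probes overlap, so they are not independent readings.
A_30_P01020727, chr12:82501035-82501094, forward strand: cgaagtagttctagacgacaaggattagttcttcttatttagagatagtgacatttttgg
A_30_P01023905, chr12:82501062-82501121, forward strand: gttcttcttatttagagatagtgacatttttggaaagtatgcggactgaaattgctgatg

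The arrays themselves were as follows. Between 4269 and 4893 lincRNA probes per array passed the scanner's flag for signal above background in the PJ34 colour, and between 2693 and 3762 did in the control colour. No spot was saturated. In the control channels, 10 of 10 NSPC marker genes, 6 of 6 neuronal, 4 of 5 astrocyte and 5 of 5 oligodendrocyte markers were well above background on all 4 arrays, against 2 of 5 microglial, 1 of 4 endothelial and 0 of 4 mesenchymal markers. The Trp53 probe gave untreated log2 intensities of 8.28 and 8.49 in wild-type and 7.56 and 7.83 in Trp53-/- cells, a difference of -0.69 ± 0.18 (q = 0.059), and whether it lies in the deleted part is not stated. Cdkn1a, the p53 target that encodes a cyclin-dependent kinase inhibitor, had untreated levels of 11.32 and 12.03 in wild-type and 8.92 and 9.03 in Trp53-/- cells. On Trp53-/- replicate 2 the log2 ratio of PJ34 over control was 4.22 for Eif2s3y and 3.12 for Ddx3y, both genes of the Y chromosome, while the Xist probes read between -5.62 and -1.39, so the 2 cell samples of that array did not hold the same mix of sexes. The untreated Eif2s3y level was 8.96 and 8.46 in wild-type and 6.01 and 6.26 in Trp53-/- cells, so the untreated cultures of the genotypes also differed in that mix. The counts and the main differences that rest on Trp53-/- replicate 2 are therefore also given without it, where the 1 Trp53-/- array left is assumed to vary like the wild-type pair. No lincRNA probe that was used lies on the Y chromosome.

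PJ34 changed few lincRNA probes by more than 2-fold. A probe is said to have risen or fallen when its p and its Storey's q by limma, adjusted over all 27042 probes, were below 0.05 and it differed by more than 2-fold. All ratios are log2 of PJ34 over control, with the error as SE and n = 2 arrays per genotype. In wild-type cells, 9 lincRNA probes rose, or 0.194% of those tested, where 0.263% of all probes did, and 1 fell, where 0.174% of all probes did. They belong to 6 strand-specific regions. In Trp53-/- cells, 0 rose, where 0.0703% of all probes did, and 2 fell, where 0.248% of all probes did, both in 1 region. Without the 2-fold limit, 380 lincRNA probes (8.17%) were higher and 199 (4.28%) lower in wild-type cells, where 12.3% and 10.4% of all probes were. In Trp53-/- cells 470 (10.1%) were higher and 237 (5.10%) lower, where 12% and 9.68% of all probes were. At an unadjusted p below 0.05 there were 853 and 1055 of either direction. With Benjamini-Hochberg adjustment and 2-fold, 10 and 2 passed. Other scalings moved these counts. With the ratios of each array centred on the median in place of loess, 94 rose and 0 fell in wild-type and 178 rose and 0 fell in Trp53-/- cells, and with the scanner software's ratios 106 rose and 29 fell in wild-type and 118 rose and 7 fell in Trp53-/- cells.

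Most lincRNA probes stayed near a ratio of 0. Their median log2 ratio was 0.02 and 0.06 on the wild-type arrays and 0.04 and 0.07 on the Trp53-/- arrays, where the median of all probes was 0.02 and 0.03, and 0.03 and 0.03. By the mean of 2 arrays, 98.2% of them were within 1.5-fold of the control in wild-type and 98.0% in Trp53-/- cells, where 96.0% and 97.0% of all probes were. The ratios of single probes held up moderately between replicates: across lincRNA probes, which are not independent of each other, Pearson's r between the 2 arrays was 0.46 in wild-type and 0.51 in Trp53-/- cells. Of 587 strand-specific regions with at least 3 probes in use, all probes of the region lay on the same side of 0 in 255 in wild-type and in 290 in Trp53-/- cells. Of the lincRNA probes in use, 84 share 30 or more bases with a probe in use that is not a lincRNA probe. Within these pairs the median gap was 0.07 in wild-type and 0.07 in Trp53-/- cells. Overlaps of lincRNA probes with each other were not counted.

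The response differed between genotypes by more than 2-fold at 20 lincRNA probes, or 0.430%, all with the higher value in wild-type, where 0.399% of all probes did, and at 0 with the higher value in Trp53-/- cells, where 0.0222% of all probes did. The 20 probes belong to 9 strand-specific regions, of which 4 lie in the locus of the ribosomal RNA precursor and 2 in Malat1. At 2 of the 20, both beside Gpr157, neither colour was well above background in Trp53-/- cells. On all 20, both wild-type arrays read higher than both Trp53-/- arrays. A dye bias that is the same on every array drops out of this difference. With q alone 40 (0.860%) were higher in wild-type and 4 (0.0860%) higher in Trp53-/- cells, where 1.11% and 0.355% of all probes were, and 460 had an unadjusted p below 0.05. The call depends on the processing: 13 of the 20 passed without Trp53-/- replicate 2, 1 with an offset of 16 in the background correction, 3 after median centring, of which 2 were among the 20, and 0 with the scanner software's ratios, under which 594 lincRNA probes had an unadjusted p below 0.05.

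**Figure D1:**
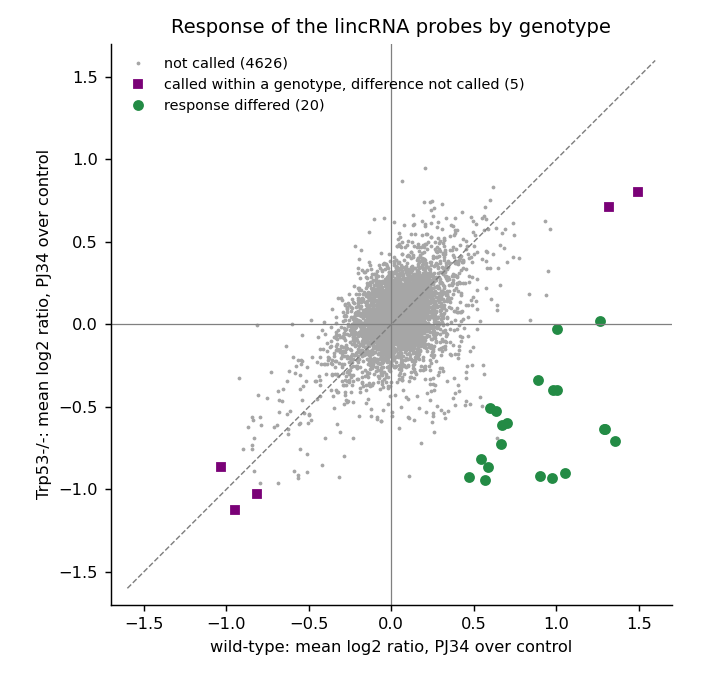
Mean log2 ratio of PJ34 over control of each of the 4651 lincRNA probes in wild-type cells (horizontal axis) and in Trp53-/- cells (vertical axis), with n = 2 arrays each. Green points are the 20 probes whose response differed between genotypes, purple squares are 5 others that rose or fell within a genotype, grey points are the rest, and the dashed line marks equal responses. All green points lie to the lower right, with values above 0 in wild-type and at or below 0.02 in Trp53-/- cells.

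The largest differences in response among lincRNA probes were at Malat1, which encodes an abundant RNA of nuclear speckles. All 7 lincRNA probes on the strand of the RNA were in use. In such bulk RNA, fewer cells of a type and less RNA per cell cannot be told apart. Probe A_30_P01028215 read 0.93 and 1.78 on the wild-type arrays and -0.38 and -1.04 on the Trp53-/- arrays. Wild-type cells were thus above 0 and Trp53-/- cells below 0 on both arrays, with no overlap. The mean was 1.36 ± 0.19 in wild-type (q = 0.00060), where the probe rose, and -0.71 ± 0.19 in Trp53-/- cells (q = 0.015), which is short of 2-fold, and the difference was 2.07 ± 0.27 (q = 0.0050). Probe A_30_P01020935, which lies further towards the 3′ end of the RNA, read 0.62, 1.49, -0.55 and -1.25 in the same order, with a difference of 1.96 ± 0.27 (q = 0.0075).

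Over the 7 Malat1 probes the wild-type mean ranged from 0.64 to 1.36 with a median of 1.05, and 4 of the 7 rose. The Trp53-/- mean ranged from -0.93 to -0.63, with q at most 0.028 at every probe and none past 2-fold. The difference passed the test at 6 of the 7 and ranged from 1.33 to 2.07. The 3 lincRNA probes on the opposite strand had differences of 0.30 to 0.87 and 0 of them passed with 2-fold. The array's own Malat1 gene probe, which is not a lincRNA probe, read 0.27, 1.04, -0.35 and -1.17, with a difference of 1.41 ± 0.28 (q = 0.032), so the gene probe and the lincRNA probes moved the same way. Untreated Malat1 levels did not pass the test between genotypes, with differences of 0.19 to 0.96 and q of at least 0.056. Replicate 2 read farther from 0 than replicate 1 at all 7 probes in both genotypes. Without Trp53-/- replicate 2 the difference at A_30_P01028215 was 1.74, with q below 0.05 under that assumption, and without wild-type replicate 2 its wild-type mean was 0.93, short of 2-fold. With the scanner software's ratios the difference was 2.06 with q = 0.28, with an offset of 16 it was 2.06 with q = 0.091, and after median centring it was 1.79 with q = 0.064.

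Neat1, the neighbour of Malat1, had no lincRNA probe on its own strand. Its gene probes, 6 in use under the names NEAT1 and Neat1, had wild-type means of 0.53 to 0.70 (q at most 0.0090), short of 2-fold. A_30_P01020135 among them read 0.41 and 0.79 in wild-type and -0.09 and -0.35 in Trp53-/- cells, and the wild-type arrays were above the Trp53-/- arrays at all 6. The difference had q below 0.05 at 3 of them, with values of 0.71 to 0.82. The control was not well above background on either wild-type array at the 5 NEAT1 probes, so these ratios are not exact. The 9 lincRNA probes in use on its opposite strand had wild-type means of -0.14 to 0.17 and Trp53-/- means of -0.45 to 0.24, and 0 of them passed.

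At 3 loci of the lincRNA set the array also places probes of known genes of other kinds. The first is the locus of the ribosomal RNA precursor on chromosome 17 (chr17:39960567-39992817), where the array places the probe of Rn18s, the 18S ribosomal RNA. It holds 10 forward and 10 reverse lincRNA probes, all in use, and 10 of the 20 differed in response, 4 forward and 6 reverse, with differences of 1.16 to 1.45. Among the 6 reverse probes, A_30_P01028735 and A_30_P01027388 overlap, so they are not independent readings. Probe A_30_P01021775 on the forward strand read 1.33 and 0.68 in wild-type and -0.09 and -0.71 in Trp53-/- cells. Both wild-type arrays were above both Trp53-/- arrays, and the probe rose in wild-type cells (1.01 ± 0.16, q = 0.0014) and differed between genotypes by 1.40 ± 0.23 (q = 0.016). These probes were chosen after their values were seen.

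The ribosomal locus was read alike on both strands. The median over the 10 forward probes was 0.35 in wild-type and -0.48 in Trp53-/- cells, and over the 10 reverse probes 0.54 and -0.61. At the reverse probes replicate 1 read higher than replicate 2 in both genotypes, with medians of 0.91 and 0.22 in wild-type and -0.30 and -0.92 in Trp53-/- cells. The Rn18s probe, which reads the mature RNA, gave 0.49, 0.64, 0.30 and 0.51 and a difference of 0.16 ± 0.14. The untreated signal of the reverse probes was 8.12 to 10.30 on wild-type replicate 1 and 10.52 to 11.54 on wild-type replicate 2, a gap within 1 genotype, and 0 of the 20 probes passed between untreated genotypes. The differences in response at the locus passed at fewer probes without Trp53-/- replicate 2, where A_30_P01019912 read 0.96 in place of 1.40. Ribosomal RNA carries no long poly(A) tail in the textbook account, and the part that the labelling reaction plays in these readings was not tested.

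The second lies in the histone cluster of chromosome 3 (chr3:96074625-96086375, forward strand), beside the receptor gene Fcgr1, and an Ensembl transcript that the array assigns to the histone gene Hist2h2bb is probed inside it. Its 5 lincRNA probes were above 0 on all 4 arrays. Probe A_30_P01027709 read 1.505 and 1.491 in wild-type and 0.66 and 0.95 in Trp53-/- cells. It rose by at least 2.74-fold in wild-type cells (q = 1.8e-05), a lower limit because the control was not well above background there. Probe A_30_P01022407 read 1.38 and 1.26 in wild-type and 0.75 and 0.68 in Trp53-/- cells, with means of 1.32 ± 0.09 (q = 2.0e-05) and 0.71 ± 0.09 (q = 0.00070). At A_30_P01022407 the control was well above background on 1 of the 2 wild-type arrays. The wild-type ratios lay above the Trp53-/- ratios at both probes, and because of the dim wild-type controls no exact difference is given. The other 3 probes of the region had wild-type means of 0.63 to 0.96 and Trp53-/- means of 0.32 to 0.58, with the control dim on 2 to 4 of the 4 arrays. The Ensembl transcript's own probe read 0.97, 0.80, 0.49 and 0.81, whereas the RefSeq probe of Hist2h2bb read -0.21, -0.15, 0.26 and 0.25. Both A_30_P01027709 and A_30_P01031568 of this region hold AATAAA. Both increases passed under all alternatives that kept the probes, and the filter that asked for both colours well above background on all 4 arrays did not keep them.

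The third is the interferon-inducible gene cluster of chromosome 1, whose members encode the p200 family of DNA-binding proteins. Probes on its reverse strand fell in Trp53-/- cells. Probe A_30_P01024163 read -1.30 and -0.59 in wild-type and -1.31 and -0.94 in Trp53-/- cells, where it fell (-1.13 ± 0.15, q = 0.00090). Probe A_30_P01027543 read -1.15, -0.48, -1.23 and -0.83, and its Trp53-/- mean was -1.03 ± 0.15 (q = 0.0013). All 5 probes of the region chr1:175705225-175717250_R lay below 0 on all 4 arrays, and 0 of them differed in response between genotypes, with differences of 0.17 to 0.30. Without Trp53-/- replicate 1 the Trp53-/- means of A_30_P01024163 and A_30_P01027543 were -0.94 and -0.83, short of 2-fold, without replicate 2 they were -1.31 and -1.23, and after median centring -0.24 and -0.17. The gene probe of Ifi204 read -1.17, -0.36, -1.23 and -0.82, in the same order and close to the values of A_30_P01027543.

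**Figure D2:**
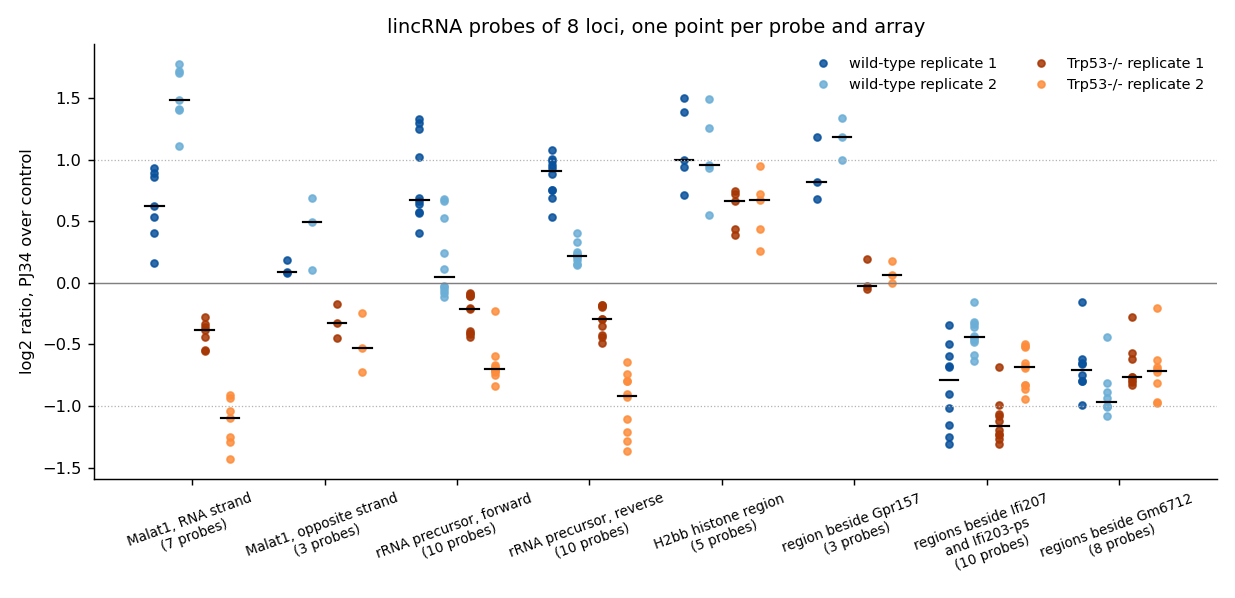
Log2 ratio of PJ34 over control of every lincRNA probe in use at 8 loci, with a point per probe and array and a bar for the median over the probes of an array. The Malat1 probes on the strand of the RNA read between 0.16 and 1.78 on the wild-type arrays and between -1.43 and -0.28 on the Trp53-/- arrays, the histone region read above 0 on all 4 arrays, and the region beside Gpr157 read at least 0.68 on the wild-type arrays and at most 0.20 on the Trp53-/- arrays. The median bars of the regions beside Ifi207, Ifi203-ps and Gm6712 lie below 0 on all 4 arrays.

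The region beside Gpr157 on chromosome 4 (chr4:149445201-149445902, forward strand) rose in wild-type cells at 2 of its 3 probes and was near 0 in Trp53-/- cells. In the RefSeq order of genes, Gm13067, a noncoding RNA gene, and Mir34a, which makes the p53-activated miRNA miR-34a, stand between H6pd and Gpr157. RefSeq's coordinates belong to another build, so the distance from the probes to Mir34a is not given. Probe A_30_P01025511 read 1.18 and 1.34 in wild-type and -0.02 and 0.06 in Trp53-/- cells. It rose in wild-type cells by 1.26 ± 0.09 (q = 2.8e-05), and the difference between genotypes was 1.24 ± 0.13 (q = 0.0018). Probe A_30_P01024344 read 0.82, 1.19, -0.05 and -0.00, with a wild-type mean of 1.00 ± 0.11 (q = 0.00021) and a difference of 1.03 ± 0.15 (q = 0.0090). The third probe, A_30_P01032002, read 0.68, 1.00, 0.20 and 0.17, and its difference of 0.65 ± 0.14 (q = 0.048) was short of 2-fold.

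At these 3 probes the wild-type arrays did not overlap with the Trp53-/- arrays. In Trp53-/- cells neither colour was well above background at any of the 3, which passed the filter through the wild-type arrays alone. A ratio near 0 there says only that the signal was not well above background, so each difference sets a measured response against background and is no measure of a response in Trp53-/- cells. Their untreated levels were also lower in Trp53-/- cells. A_30_P01025511 had untreated log2 intensities of 7.35 and 7.35 in wild-type and 6.02 and 5.90 in Trp53-/- cells, at least 1.88-fold lower (q = 0.015), and the other 2 were at least 1.87-fold and 1.80-fold lower (q = 0.016 and 0.020). The Gpr157 probe itself read 0.21, 0.11, 0.03 and -0.03. With the scanner software's ratios the difference at A_30_P01025511 was 1.92 with q = 0.26, and the filter that asked for both colours on all 4 arrays did not keep the 3 probes.

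Other lincRNA regions outside the named loci differed in response, and both are given here after their values were seen. A_30_P01020128, the 1 probe of chr4:141527564-141547339_F, read 0.26 and 0.88 in wild-type and -0.66 and -1.23 in Trp53-/- cells, a difference of 1.52 ± 0.22 (q = 0.0099) with no overlap, which was 1.23 (q = 0.0039) without Trp53-/- replicate 2. A_30_P01024606, beside the peroxisomal oxidase gene Acox3, read 0.28, 0.91, -0.26 and -0.75, a difference of 1.10 ± 0.21 (q = 0.031), which was 0.86 without Trp53-/- replicate 2 and 0.79 without wild-type replicate 2, short of 2-fold in both. The other 3 probes of its region had differences of 0.74 to 0.77 that did not pass.

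In the other direction, the lowest p belonged to a region beside Hectd4 on chromosome 5 (chr5:121778090-121779622_F). A_30_P01021211 read 0.13 and 0.00 in wild-type and 0.81 and 0.93 in Trp53-/- cells, and A_30_P01032647 read 0.17, 0.24, 0.81 and 1.08. The Trp53-/- arrays were higher at both probes, by 0.80 ± 0.13 (q = 0.016) and 0.74 ± 0.14 (q = 0.027), short of 2-fold. Without Trp53-/- replicate 2 these were 0.74 (q = 0.039) and 0.61 (q = 0.094). Beside Pelp1, A_30_P01023883 read 0.11, -0.20, 0.60 and 0.69, with at least 1.56-fold higher signal after PJ34 in Trp53-/- cells, where the control was not well above background. Beside Tigit, A_30_P01024492 read 0.23, 0.24, 0.70 and 0.78, with a Trp53-/- mean of 0.74 ± 0.09 (q = 0.00051). The difference in response did not pass at any probe of its region, where q was at least 0.074.

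A locus beside the predicted gene Gm6712 on chromosome 17 was lower after PJ34 in both genotypes. A_30_P01030358 read -0.99 and -1.08 in wild-type and -0.76 and -0.97 in Trp53-/- cells, and it was the 1 lincRNA probe that fell in wild-type cells (-1.03 ± 0.10, q = 0.00011). It did not differ in response past the test (difference -0.17 ± 0.13). The 3 probes on the opposite strand (chr17:17481706-17482457_R) had means of -0.90 to -0.84 in wild-type and -0.76 to -0.73 in Trp53-/- cells, short of 2-fold on all, and their control signals were 14.6 to 16.3, among the brightest lincRNA probes. The gene probe of Gm6712 read -0.10, 0.05, 0.05 and -0.15.

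Next, lincRNA probes were described by the gene they lie beside, defined as the gene probe nearest within 100 kb, which a lincRNA probe may also overlap. Of 47 p53 target genes on a list, 44 had a gene probe, and 54 lincRNA probes in use lay nearest to 6 of them: 19 to Pvt1, 18 to Tug1, 9 to Neat1, 5 to Cdkn1a, 2 to Trp53inp1 and 1 to Phlda3. In all 3 response comparisons 0 of the 54 passed with 2-fold by limma, where at most 0.399% of all probes did in either direction. With q alone 8 passed in wild-type, 13 in Trp53-/- cells and 1 for the difference, where 22.8%, 21.7% and 1.46% of all probes did. Their median was 0.00 in wild-type, -0.03 in Trp53-/- cells and 0.04 for the difference, where all probes had 0.03, 0.03 and -0.01. Cdkn1a itself, which is no lincRNA probe, read 1.84 and 1.23 in wild-type and -0.48 and -0.74 in Trp53-/- cells.

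Pvt1 is a noncoding RNA gene beside Myc and a p53 target. Its neighbour A_30_P01031174 read -0.41 and -0.22 in wild-type and -0.93 and -0.92 in Trp53-/- cells, a Trp53-/- mean of -0.92 ± 0.09 (q = 0.00026) and a difference of 0.61 ± 0.13 (q = 0.047). The 2 groups did not overlap, but neither value reached 2-fold, and without Trp53-/- replicate 2 the difference was 0.61 with q = 0.10. Over the 19 probes beside Pvt1, the wild-type means ranged from -0.32 to 0.44 and the Trp53-/- means from -0.92 to 0.20, with q below 0.05 at 6 and 10 of them. A_30_P01029562 among them has the sequence of the Pvt1 gene probe A_55_P2155654 and thus reads Pvt1 itself. In Trp53-/- cells that gene probe had a mean of 0.01 (q = 0.48), and the Pvt1 gene probe A_55_P2051254 had -0.65 (q = 0.0038). LincRNA-p21, which lies upstream of Cdkn1a, has 5 probes of its own under its name, and 0 of the 5 were well above background often enough to be used. Of the 5 probes in use beside Cdkn1a, A_30_P01027010 read 0.62 and 0.66 in wild-type and -0.17 and 0.34 in Trp53-/- cells. It was at least 1.18-fold higher after PJ34 in wild-type cells (q = 0.0026), with the control not well above background there. Its region, chr17:29183003-29217681_R, contains the positions of the lincRNA-p21 probes on the same strand. Whether A_30_P01027010 reads lincRNA-p21 was not tested. The 18 probes beside Tug1, which encodes a noncoding RNA, had wild-type means of -0.18 to 0.14 and Trp53-/- means of -0.32 to 0.20. Some of the 18 read Tug1 itself, such as A_30_P01020465, which shares 58 bases with a Tug1 gene probe.

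For transcription factors of neural development, 140 of 150 listed genes had a gene probe, and 33 lincRNA probes in use lay nearest to 15 of them. In the response comparisons 0 of the 33 passed with 2-fold by limma, where at most 0.399% of all probes did in either direction of any comparison. With q alone 0 passed in wild-type and 2 in Trp53-/- cells, where 22.8% and 21.7% of all probes did. The medians of the 33 were 0.04 in wild-type and 0.11 in Trp53-/- cells. Among 46 probes in use for 29 listed long noncoding RNA genes, which are not lincRNA probes by name, the Malat1 gene probe differed in response by more than 2-fold. The 3 probes that the array names NEAT2, given here after their values were seen, also did, by 1.37 to 1.46 (q at most 0.045). They are not independent readings: A_30_P01019221 has the same position as the Malat1 gene probe, and A_30_P01020325 shares 39 bases with a lincRNA probe of Malat1.

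A search for whole mature miRNAs inside the lincRNA probes, over 1738 RefSeq sequences and on the strand of the probe, found 6 probes, of which 1 was in use. It is shown because its region on chromosome 12 holds a cluster of miRNAs, with the bases of mmu-miR-410-3p in capitals, and an array probe of this length reads the long precursor rather than the mature miRNA.
A_30_P01029937, chr12:110981965-110982024: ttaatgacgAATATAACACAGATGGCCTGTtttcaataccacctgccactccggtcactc
It read 0.23 and -0.01 in wild-type and -0.04 and -0.05 in Trp53-/- cells, within the spread of the arrays (difference 0.15, q = 0.50).

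More lincRNA probes passed between untreated genotypes than in any response comparison, and the same held for all probes on the array. Levels here are log2 control-channel intensities after quantile normalization between arrays. In Trp53-/- cells 140 lincRNA probes were lower, or 3.01%, where 1.63% of all probes were, and 19 were higher, or 0.409%, where 1.72% of all probes were. The lower probes belong to 122 strand-specific regions and the higher ones to 11. The filter had admitted 752 lincRNA probes through the wild-type arrays alone and 448 through the Trp53-/- arrays alone. The rule treats the genotypes alike, but the probes it let in were more often bright in wild-type cells only. The lower and higher shares are therefore not independent of it. In the control colour, 3762 lincRNA probes were well above background on wild-type replicate 1 and 2905 on wild-type replicate 2. On Trp53-/- replicates 1 and 2 the counts were 2805 and 2693, so wild-type replicate 1 stood apart. Over all 4651 probes the median difference, Trp53-/- minus wild-type, was -0.13, and 63.2% were lower, where the median of all probes was 0.01 and 48.3% were lower. With each array scaled to its 75th percentile the lincRNA median was -0.26, and with the scanner software's processed signals it was -0.54, against -0.01 and -0.03 for all probes. In the PJ34 channel the medians were -0.13 and 0.04.

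These counts rested on both Trp53-/- arrays: without either of them 0 lincRNA probes passed, with 617 at an unadjusted p below 0.05 when replicate 1 was left out and 327 when replicate 2 was. The count was 282 without wild-type replicate 1 and 341 without wild-type replicate 2. With Benjamini-Hochberg adjustment in place of q, 9 were higher and 74 lower. The wild-type control channels held the Y-linked signal that the Trp53-/- ones lacked, so genotype and the mix of sexes cannot be told apart in the untreated comparison. Of 154 lincRNA probes in use on the X chromosome, 2 passed, both lower in Trp53-/- cells, where 1.63% of all probes were lower.

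**Figure D3:**
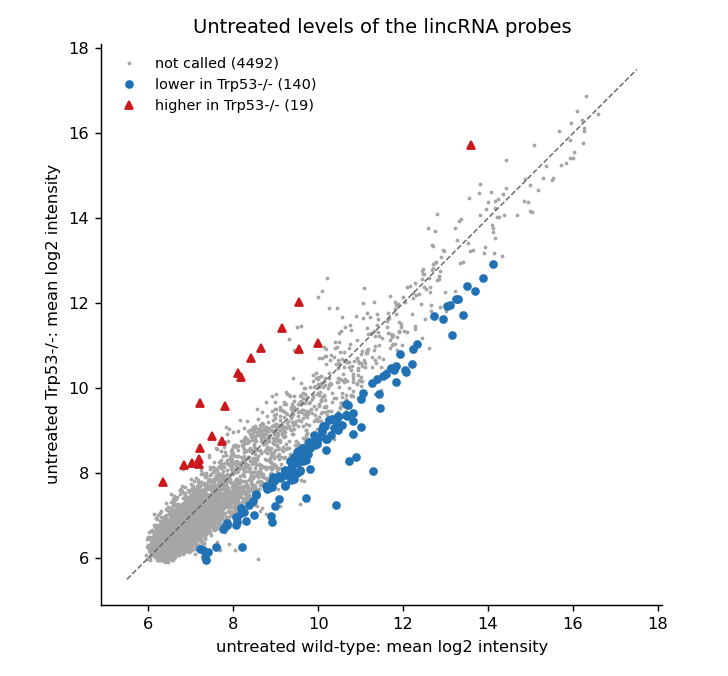
Mean untreated log2 intensity of each of the 4651 lincRNA probes in wild-type (horizontal axis) and Trp53-/- cells (vertical axis), with n = 2 control channels each. Blue points are the 140 probes lower and red triangles the 19 probes higher in Trp53-/- cells, grey points are the rest, and the dashed line marks equal levels. Most of the blue points lie close to the lower edge of the grey cloud, with a median difference of -1.24, and few lie apart from it.

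The largest untreated difference was on chromosome 12, beside Adam4. A_30_P01020727 had levels of 12.22 and 10.35 in wild-type and 8.53 and 7.56 in Trp53-/- cells, a difference of -3.24 ± 0.62 (q = 0.032). A_30_P01023905, which overlaps it, had 11.70 and 9.15 in wild-type and 7.31 and 7.20 in Trp53-/- cells (-3.18 ± 0.75, q = 0.048). The genotypes did not overlap, but the 2 wild-type arrays lay far apart at both probes. A_30_P01025384, the next probe of the same region as A_30_P01023905, had 14.25 and 14.51 in wild-type and 14.07 and 14.08 in Trp53-/- cells, a difference of -0.31 ± 0.17 (q = 0.20).

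Probes of 1 region also differed among themselves at the 2 next loci. Beside Pus7, which encodes a pseudouridine synthase, A_30_P01019583 had 11.02 and 10.45 in wild-type and 8.16 and 8.41 in Trp53-/- cells (-2.45 ± 0.24, q = 0.011). Its neighbours A_30_P01026028 and A_30_P01020907 were lower by 2.32 and 2.07. The other 4 lincRNA probes of the region on the same strand had differences of 0.64 to 1.28 in the other direction that did not pass with 2-fold. The gene probe of BC023969, inside the region on that strand, did pass as higher in Trp53-/- cells (1.45 ± 0.30, q = 0.037). Its control was well above background on wild-type replicate 1 but not on replicate 2. Beside Nup210, a nuclear pore gene, A_30_P01029584 had 10.34 and 11.43 in wild-type and 8.10 and 8.66 in Trp53-/- cells (-2.51 ± 0.39, q = 0.023), and A_30_P01028020 in the same region differed by -0.26 ± 0.26.

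Of the remaining lower probes, the 3 beside Gpr157 described above were joined by 3 probes of a region beside Zfp541 on chromosome 7, with differences of -1.44 to -1.15, and 3 of a region beside Gm14308 on chromosome 2, with differences of -1.25 to -1.13. Zfp541 and Gm14308 encode, or are predicted to encode, zinc finger proteins. These 2 regions were chosen after their values were seen. In all, 18 strand-specific regions had at least 2 probes that passed, and 7 of the 140 lower probes had no control signal well above background in Trp53-/- cells. Of the 140, 2 also passed in a response comparison, both beside Gpr157.

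The higher probes were led by the interferon-inducible cluster. A_30_P01024163 had untreated levels of 8.78 and 10.32 in wild-type and 11.90 and 12.16 in Trp53-/- cells, a difference of 2.48 ± 0.47 (q = 0.032), and A_30_P01030969 beside Ifi207 had 6.76 and 7.68 in wild-type and 9.54 and 9.76 in Trp53-/- cells (2.43 ± 0.31, q = 0.017). All 5 probes of chr1:175705225-175717250_R were higher, by 2.08 to 2.48, and 3 of 4 of chr1:175654606-175672031_R, by 1.38 to 2.24. A_30_P01023338 of the former region and A_30_P01021597 of the latter are closely alike in sequence, so the regions may not be independent readings. The gene probe of Ifi204 had 8.19 and 9.22 in wild-type and 10.66 and 10.77 in Trp53-/- cells (2.01 ± 0.34, q = 0.025). The same probes were thus higher in untreated Trp53-/- cells and below 0 after PJ34 in both genotypes. Outside this cluster, A_30_P01026605 on chromosome 16 had 12.85 and 14.37 in wild-type and 15.92 and 15.54 in Trp53-/- cells (2.12 ± 0.47, q = 0.044), which was chosen after its values were seen.

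**Figure D4:**
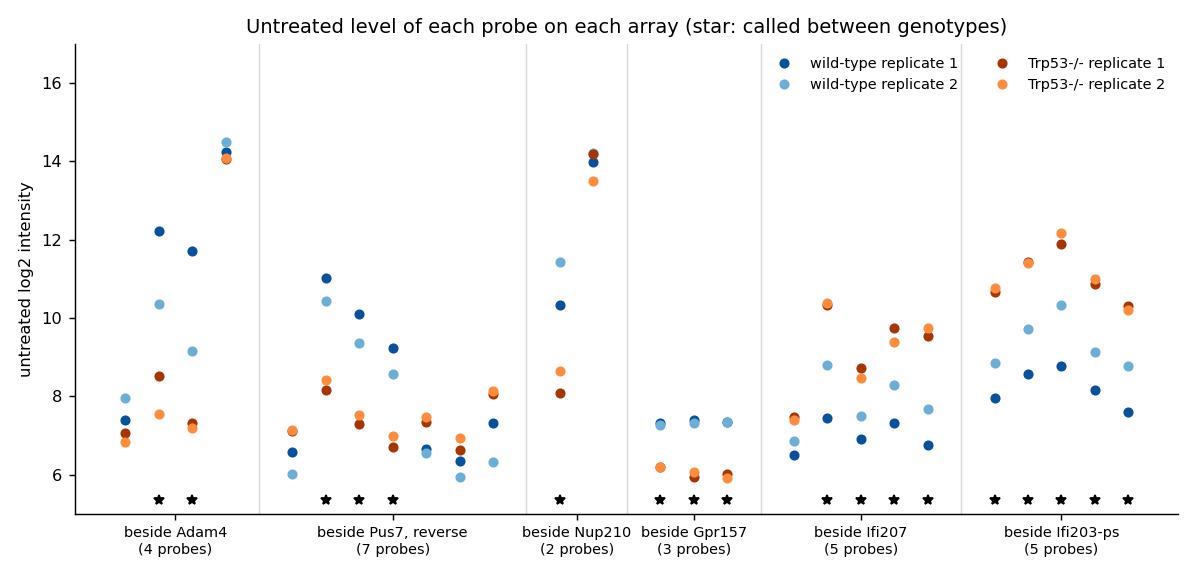
Untreated log2 intensity of every lincRNA probe in use at 6 loci, with a point per probe and array, in order along the chromosome. A star marks a probe that passed the test between untreated genotypes. Beside Adam4, Pus7 and Nup210 starred probes stand next to probes that did not pass, with differences of -0.72 and -0.31 beside Adam4, 0.64 to 1.28 beside Pus7 and -0.26 beside Nup210, beside Gpr157 all 3 are starred and lower in Trp53-/- cells, and beside Ifi203-ps all 5 are starred and higher.

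Beside the listed p53 targets, 2 of 54 lincRNA probes were lower in untreated Trp53-/- cells and 0 were higher: A_30_P01027502 beside Pvt1 by -1.37 ± 0.19 (q = 0.019), and A_30_P01026736 opposite Neat1 by -1.03 (q = 0.049). Beside the neural transcription factors 1 of 33 was lower and 0 were higher. Of all probes, 1.63% were lower and 1.72% higher. The 5 lincRNA probes with the highest mean untreated level did not pass between the genotypes. A_30_P01026458, beside B3gnt2, had 16.58 and 16.58 in wild-type and 16.45 and 16.47 in Trp53-/- cells, and its ratio after PJ34 was 0.20 to 0.32 on all 4 arrays. The other 4 had untreated differences of -0.14 to 0.58 with q of at least 0.19.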

How the data were processed

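RNA of NSPCs was hybridised to 4 two-colour Agilent arrays, each on a slide of its own, so a slide effect could not be fitted, and RNA was prepared independently for the 2 arrays of a genotype. The authors scanned and extracted the arrays with Agilent Feature Extraction 10.7.3.1, and the deposited intensities used here are the mean spot signal and the median local background of each colour, with flags for signals well above background. The deposited log10 ratios of Cy5 over Cy3 and the processed intensities, which the software had corrected for background and dye, served as alternatives. A table of processed values has 4 columns named by number only, which could not be tied to arrays and were not used.

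Control spots and outlier-flagged spots were left out, the background was corrected by normexp with an offset of 50, ratios were normalized by loess within arrays, and intensities by Aquantile between arrays for untreated levels (R 4.3.3, limma 3.58.1). Spots of a probe were averaged to 55681 probes. Models were fitted with limma over all 27042 probes in use, with 2 residual degrees of freedom among samples, 10.49 in total after moderation for ratios and 6.1 for untreated levels. P-values were two-sided and adjusted as Storey's q. A fold against a group that was not well above background on any of its arrays is a lower limit, taken against the lowest signal well above background or the probe's own, whichever was higher on each array. The code was tested on simulated data. The number of arrays limits the precision.

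Named probes were the 6 largest increases and decreases per comparison among those that passed with arrays or groups apart, filled to 3 per direction by lowest p, the 5 brightest, up to 10 beside p53 targets by lowest p of the difference, and all probes of their regions. Others are said to be chosen after their values were seen. The lincRNA probes, the gene lists and the tests were chosen with earlier results of these data known. Probe sequences and coordinates (mm9) come from the array files, gene symbols and mature miRNAs from RefSeq. Alternatives changed the offset, background correction, scaling, filter, adjustment, fold limit and replicate block, or left out an array.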

Additional observations from a re-analysis of the deposited data

Results flagged for a closer look

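The response differed between wild-type and Trp53-/- cells at 20 lincRNA probes by limma's test of the difference, the values of which follow as wild-type minus Trp53-/- on the log2 scale. At Malat1 the differences were 2.07 (A_30_P01028215), 1.96 (A_30_P01020935), 1.93 (A_30_P01021970), 1.92 (A_30_P01031754), 1.91 (A_30_P01021078) and 1.82 (A_30_P01019829). At the forward probes of the ribosomal RNA precursor they were 1.40 (A_30_P01021775), 1.38 (A_30_P01029653), 1.23 (A_30_P01027833) and 1.16 (A_30_P01030943), and at the reverse probes 1.45 (A_30_P01025659), 1.40 (A_30_P01019912), 1.39 (A_30_P01018010), 1.36 (A_30_P01024081), 1.30 (A_30_P01028735) and 1.28 (A_30_P01027388). The remaining differences were 1.52 (A_30_P01020128), 1.24 (A_30_P01025511), 1.10 (A_30_P01024606) and 1.03 (A_30_P01024344). At A_30_P01025511 and A_30_P01024344 neither colour was well above background in Trp53-/- cells. Their values set a wild-type response against background and are no measure of a response in Trp53-/- cells.

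On Trp53-/- replicate 2, outside the lincRNA probes, the log2 ratio was 4.22 for Eif2s3y and 3.12 for Ddx3y, which no other array approached (at most 0.84 and 0.18).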

How the results depend on the processing

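Of 736 values of named probes under alternatives, 591 kept their direction and their side of the threshold, 134 fell short of it, 8 passed newly and 3 turned: the untreated difference of A_30_P01031264, 0.11, was -0.17 to 0.38 as single arrays were left out (-0.17 without wild-type replicate 1, -0.07 without Trp53-/- replicate 1), and that of A_30_P01023523, 0.44, was -0.055 without wild-type replicate 1. The cause was not tested.

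The counts of probes that passed in wild-type, Trp53-/-, difference and untreated comparisons (10, 2, 20 and 159) were 19, 7, 1 and 284 with an offset of 16, and 579, 707, 44 and 308 with no fold limit. Median centring gave 94, 178 and 3, and the scanner software's ratios 135, 125 and 0 for the responses. The filter that asked for both colours on all 4 arrays, which kept 2173 lincRNA probes, gave 6 in wild-type. With no filter 96 passed between untreated genotypes, and with Benjamini-Hochberg adjustment 83. As single arrays were left out, with the lone array of a genotype assumed to vary like the other pair, the counts ranged from 10 to 17, 2 to 23, 13 to 50 and 0 to 341. The wild-type median ratio of 0.047 was 0.257 after median centring, 0.103 with the scanner's ratios and 0.0055 with no filter. The Trp53-/- median of 0.053 was 0.0771 with an offset of 16, 0.251 after median centring, 0.140 with the scanner's ratios, 0.0061 with no filter and 0.0183 with the stricter filter.

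The deviations of same-numbered arrays had a correlation of -0.17 for ratios and 0.08 for untreated levels. With 2 arrays per genotype this cannot tell whether arrays of the same number were prepared together, which the labels do not say. With the replicate number as a block the counts were 10, 2, 23 and 233. With the numbers crossed, an alternative added after seeing the data, they were 10, 2 and 23 for the responses. A set of names beginning with lincRNA gave no value, since no probe had one.

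At Malat1, the 6 differences did not pass with an offset of 16, after median centring or with the scanner's ratios, and the wild-type increase of A_30_P01028215 was 0.93 without wild-type replicate 2. The decrease of A_30_P01030358 in wild-type cells was -0.45 after median centring and -0.99 without wild-type replicate 2. No named untreated difference passed when either Trp53-/- array was left out. Signal over background limits the region beside Gpr157, where Trp53-/- cells gave a bound.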

Other observations

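The lincRNA probes with the widest gaps between the 2 Trp53-/- arrays were examined after their values were seen. A_30_P01026822, beside 1110038B12Rik, read 0.43 on replicate 1 and -1.06 on replicate 2. A_30_P01025874, beside the noncoding RNA gene Dancr, read 0.14 and -1.25. A_30_P01030915, beside Firre on the X chromosome, read 0.15 and 1.23. The H19 probe A_30_P01021588, which is named for its gene, was higher in untreated Trp53-/- cells (fitted difference 1.57, q = 0.024). Its control was well above background on 1 of the 2 wild-type arrays. The other H19 probes in use had untreated differences of 0.68 to 1.90 in the same direction, none of which passed (q of 0.056 to 0.11). After PJ34, A_30_P01021588 read -0.08 on Trp53-/- replicate 1 and 1.28 on replicate 2.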
